A study of Oryza sativa Japonica Group with 10 samples.

Results

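The transcriptome of OsJAZ1-OE, a rice line that overexpresses the JAZ protein OsJAZ1, was compared with that of its parent cultivar ZH11 (Zhonghua 11) under normal conditions, that is, without drought stress. The comparison used 6 of the 10 RNA-seq libraries analysed here, 3 of OsJAZ1-OE and 3 of ZH11, each prepared from shoots at the four-leaf stage. The other 4 libraries, 2 of each genotype, came from plants under drought stress, and they served to read the same genes in a second set of samples. Both genotypes share the ZH11 background, and the control plants carried no transgene. OsJAZ1-OE carries the OsJAZ1 coding sequence behind the drought-inducible OsLEA3-1 promoter, in an Agrobacterium T-DNA vector, and all OsJAZ1-OE libraries come from a single line, OE-1. What follows is therefore a difference between OE-1 and ZH11, in which an effect of the transgene and any other difference of the line cannot be told apart. Of the 55689 gene identifiers in the files, 24850 had enough counts to be tested. The study's methods call the replicates biological, and neither they nor the labels say how many plants went into each, so the p-values measure the spread between these samples.

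JAZ proteins are repressors of jasmonate signaling. In the resting state they bind MYC-type transcription factors and hold their target genes down, and the active hormone, jasmonoyl-isoleucine, brings them to the F-box receptor COI1, after which they are degraded. Jasmonate acts in wounding, defense, flower development and growth, and in drought it works alongside abscisic acid (ABA).

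The 6 libraries held 32396154 to 33699305 expected counts each, the estimated number of fragments per gene, and their levels are given as FPKM, fragment numbers scaled to transcript length and to the size of the library. Markers of the labelled tissue were abundant: 6 genes of leaf photosynthesis summed to 12065 to 15152 FPKM, against 12.4 to 16.4 FPKM for 5 root genes and 3.00 to 4.69 FPKM for 3 seed storage genes, and the sum of 2 meristem genes did not exceed 0.0495 FPKM. Fewer cells of a type and less RNA per cell cannot be told apart in such bulk samples. Pairs of replicates correlated at 0.994 to 0.995 across genes (Pearson's r of log2(FPKM + 1)), which are not independent points. OsJAZ1-OE replicate 1 stood apart in its rarest transcripts, with 31294 genes at 1 count or more against 29199 to 29882 in the other 5 libraries, and 1178 genes counted in that library alone, with 1335 counts among them.

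The overexpressed gene was examined first. OsJAZ1 (LOC_Os04g55920, Chr4:33306461-33310232, plus strand, in the authors' coordinates) stood at 117, 116 and 110 FPKM in ZH11 replicates 1, 2 and 3, and at 1281, 1200 and 1239 FPKM in OsJAZ1-OE. All 3 OsJAZ1-OE libraries lay far above all 3 ZH11 libraries. The means were 114 ± 3.60 and 1239.8 ± 40.5 FPKM (SD, n = 3 each), a log2 fold change of 3.46 with a standard error of 0.06 (adjusted p = 9.4e-11, edgeR's quasi-likelihood test with Benjamini-Hochberg adjustment over all genes tested, the source of every adjusted p below). The line therefore had a high OsJAZ1 level without drought, although the promoter is described as drought-inducible. In the drought libraries the log2 fold change was 3.15.

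The rise was in 1 of the 4 annotated OsJAZ1 transcripts. The transcript of 1205 bases made up 7.60 to 12.3% of the gene's FPKM in ZH11 and 99.3 to 99.5% in OsJAZ1-OE. The transcript of 1202 bases, which carried 87.7 to 92.4% in ZH11 at 105, 107 and 96.6 FPKM, was listed at 9.11, 7.09 and 6.53 FPKM in OsJAZ1-OE. These shares are estimates that divide reads between near-identical transcripts, and the transgene's own ends are not among them. OsLEA3 (LOC_Os05g46480), the late embryogenesis abundant protein gene whose promoter drives the transgene, stood at 1.21, 0.826 and 1.33 FPKM in ZH11 and at 1.80, 1.67 and 2.06 FPKM in OsJAZ1-OE. Its log2 fold change of 0.65 did not pass the test (adjusted p = 0.61 from edgeR), with a 95% interval from -0.56 to 1.86. None of the 20 tested genes nearest to OsJAZ1, 10 on each side, passed either, and their log2 fold changes ran from -0.29 to 0.74 with a lowest adjusted p of 0.40 (edgeR).

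Most of the called genes were higher in OsJAZ1-OE. Genes were called where the adjusted p was below 0.05 and the change at least 1 on the log2 scale, and by this rule edgeR found 334 genes higher (1.34% of those tested) and 60 lower (0.241%), 394 in all (1.59%). Without the fold limit 583 genes passed higher (2.35%) and 369 lower (1.48%), together 3.83% of those tested. These counts were less stable: leaving out 1 library gave 374 to 512 higher and 107 to 567 lower, with the fewest in both directions without OsJAZ1-OE replicate 3 and more lower than higher genes without ZH11 replicate 2, and DESeq2 gave 676 higher and 681 lower. Without ZH11 replicate 1 there were 129 lower genes, without ZH11 replicate 3 there were 138 beside 387 higher genes, and without OsJAZ1-OE replicate 2 there were 211. The FPKM of the 2 genotypes did not overlap for 386 of the 394 called genes and for 22.7% of all genes tested. On the log2 scale the median difference was 4.55 for the higher genes, or 4.07 with the genes at 0 in ZH11 set to their lower bound, and -1.55 for the lower genes. The number of lower genes rested more on single libraries, with 33 without ZH11 replicate 1 and 31 without OsJAZ1-OE replicate 3.

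**Figure D1:**
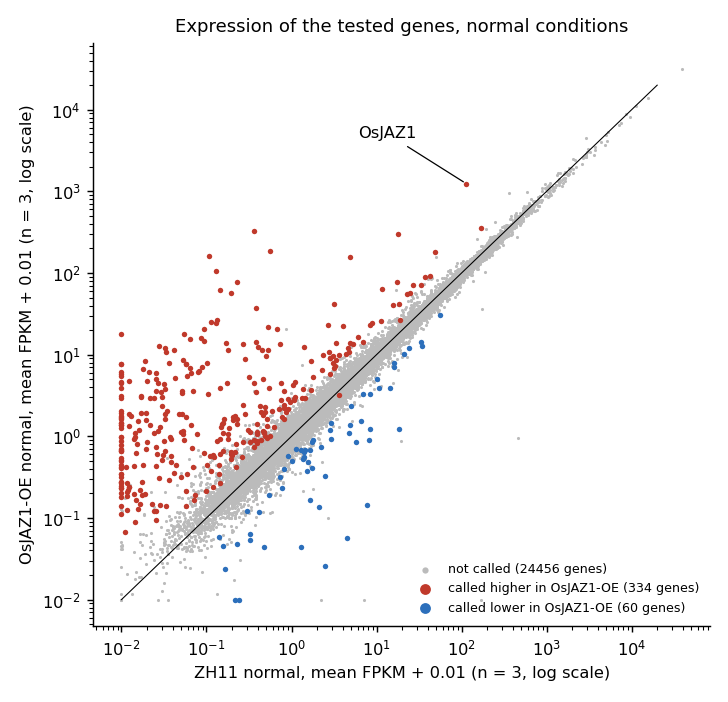
Mean FPKM of each tested gene in ZH11 (horizontal) and OsJAZ1-OE (vertical) under normal conditions, on log axes after adding 0.01, each mean over 3 libraries, with called genes coloured. Of the 334 higher genes, many lie far above the diagonal and many at the left edge of the plot, while 89 have a log2 fold change under 2. The 60 lower genes lie mostly close below the diagonal.

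The higher genes fell largely into a class that was nearly silent in the parent. Of the 334, 206 (61.7%) rose by at least 3 on the log2 scale and 183 by at least 4, while 39 lay between 2 and 3 and 89 between 1 and 2. In ZH11, 177 of them (53.0%) averaged under 0.1 FPKM, as did 2.56% of all genes tested, and 49 had no count in any of the 3 ZH11 libraries. A gene absent from ZH11 can reach the test only through another group, so these shares describe the called genes and support nothing further. The higher genes as a group had a median of 0.0781 FPKM in ZH11 and 1.78 FPKM in OsJAZ1-OE, where 100 of them averaged at least 5 FPKM and 20 at least 50 FPKM. Library by library, 54 to 56 of the 334 reached 1 FPKM in ZH11 and 210 to 220 in OsJAZ1-OE. Their summed level was 740 to 855 FPKM in ZH11 and 4976 to 5322 FPKM in OsJAZ1-OE, where OsJAZ1 itself had the highest level of the 334. OsJAZ1-OE replicate 1, the library with the most rare transcripts, was not above replicate 3 in this sum, and without it 310 genes were called higher and 49 lower.

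A set of 6 genes with a mean of at least 5 FPKM in OsJAZ1-OE had no count in ZH11, so that only a lower bound of the fold can be given, set against 3 counts over the 3 ZH11 libraries together. The unannotated gene Oryza_sativa_newGene_1542 (Chr6:28565781-28567572) was listed at 0 FPKM in each ZH11 library and at 5.37, 6.61 and 5.56 FPKM in OsJAZ1-OE, at least 329.8-fold higher. A second one on that chromosome, Oryza_sativa_newGene_1528 (Chr6:22186766-22188776), went from 0 to 6.37, 7.79 and 8.68 FPKM, at least 213-fold higher. LOC_Os04g43090 (Chr4:25518248-25518789) stood at 14.8, 13.6 and 25.9 FPKM in OsJAZ1-OE, at least 132-fold higher. The remaining members of the set behaved alike, each present in all 3 OsJAZ1-OE libraries. They were LOC_Os03g03330, at least 116-fold higher, LOC_Os10g41829, at least 104-fold higher, and LOC_Os01g03280, at least 84.6-fold higher.

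Other genes had a trace in ZH11 and an abundant transcript in OsJAZ1-OE. LOC_Os10g12610 (Chr10:7019425-7020542) stood at 0.428, 0.337 and 0.297 FPKM in ZH11 and at 321, 346 and 301 FPKM in OsJAZ1-OE, a log2 fold change of 9.79 with a standard error of 0.27 (adjusted p = 2.2e-09, edgeR). LOC_Os07g06834 (Chr7:3339384-3340631) stood at 0.468, 0.584 and 0.598 FPKM against 182, 191 and 181 FPKM, a log2 fold change of 8.37 with a standard error of 0.13 (adjusted p = 4.0e-11, edgeR). Within each genotype these libraries differed little, and between genotypes they did not overlap. LOC_Os09g09210 was the most uneven of the abundant genes, at 0.243, 0.0319 and 0.0857 FPKM in ZH11 and 114, 123 and 77.0 FPKM in OsJAZ1-OE. LOC_Os03g43100 was at 0.226, 0.229 and 0.201 FPKM against 76.8, 74.4 and 80.9 FPKM, with a log2 fold change of 8.49. LOC_Os03g18779 was at 0.0280, 0.197 and 0.180 FPKM against 59.9, 63.7 and 63.0 FPKM, with a log2 fold change of 8.78. Counting these 5, 7 genes reached both 50 FPKM and a log2 fold change of 7, and their ZH11 level was 0.0606 to 0.326% of that in OsJAZ1-OE. None of these 5 has a product description in the sources used here.

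The same contrast appeared at lower abundance. LOC_Os08g33550 (Chr8:20948959-20951695) averaged 0.0230 FPKM in ZH11 and stood at 10.5, 11.3 and 10.4 FPKM in OsJAZ1-OE, with a log2 fold change of 8.79 and, beside LOC_Os07g06834, the lowest adjusted p of all genes (4.0e-11, edgeR). LOC_Os05g45160 averaged 0.00875 FPKM against 8.37, 8.43 and 8.11 FPKM, and LOC_Os02g03640 averaged 0.0478 FPKM against 7.68, 7.68 and 7.95 FPKM, log2 fold changes of 9.68 and 7.35. Of the higher genes, 67 had 1 to 3 counts over the ZH11 libraries, and for them the fold is poorly bounded from above. LOC_Os10g21970, with 1 count in ZH11 and 827 in OsJAZ1-OE, had a ratio of 829 with a 95% counting interval that began at 148. LOC_Os02g32900, with 1 count against 782, had a ratio of 784 and an interval that began at 140.3. Oryza_sativa_newGene_1270, with 2 counts against 1230, had a ratio of 617 and an interval from 170.3 to 5097. Such intervals cover counting error of the pooled counts only and leave out the spread between libraries. Reads amplified by PCR are also not independent molecules.

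Other genes with a low p or a high level differed by less. LOC_Os03g02460 (Chr3:884559-889518) rose from 4.73, 5.32 and 4.64 FPKM to 171, 141 and 155 FPKM, a log2 fold change of 5.54 (adjusted p = 4.6e-11, edgeR). LOC_Os01g35330, which the annotation calls a circumsporozoite protein precursor after a protein of the malaria parasite, rose from 18.2, 17.6 and 17.74 FPKM to 329, 275 and 295 FPKM, a log2 fold change of 4.03. LOC_Os07g11150 rose from 0.311, 0.369 and 0.422 FPKM to 14.1, 14.3 and 15.0 FPKM, a log2 fold change of 5.31. In all 3 cases the genotypes stood apart in every library. The increase was smaller for LOC_Os02g11705, at 43.1, 44.4 and 56.6 FPKM in ZH11 and 168, 198 and 179 FPKM in OsJAZ1-OE (log2 fold change 1.90). It was smallest for LOC_Os10g41980, at 211, 126 and 172 FPKM against 348, 277 and 436 FPKM, where the spread within each genotype was wide and the log2 fold change 1.03 with a standard error of 0.18 (adjusted p = 0.0089, edgeR).

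**Figure D2:**
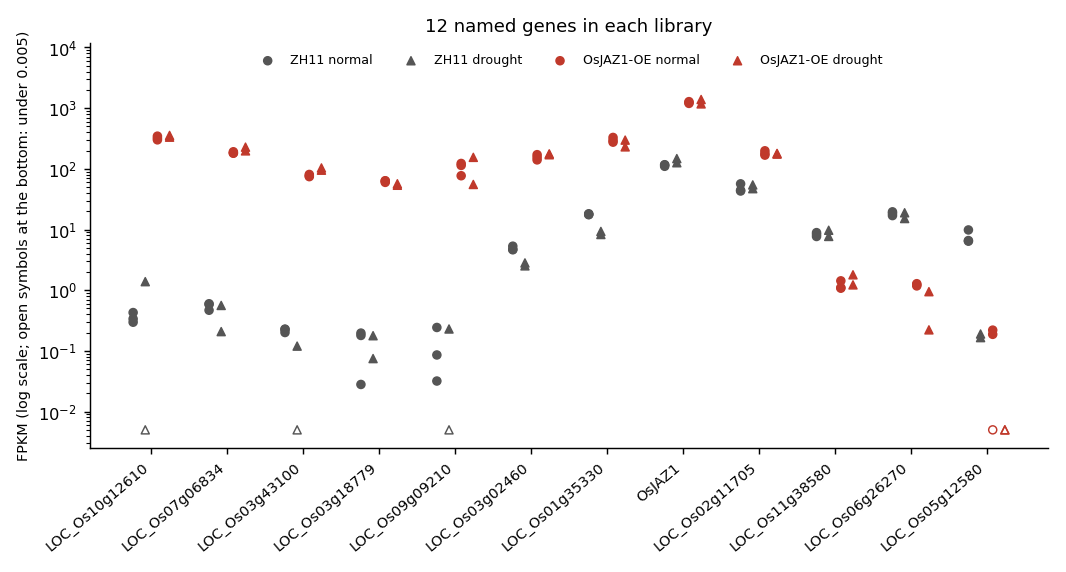
FPKM in each library, on a log axis, of 12 genes with the largest or most abundant differences, in ZH11 (grey) and OsJAZ1-OE (red), with circles for normal conditions and triangles for drought, and open symbols for values under 0.005. LOC_Os10g12610 stands at 0.297 to 0.428 FPKM in ZH11 and at 301 to 346 FPKM in OsJAZ1-OE under normal conditions, and OsJAZ1 at 110 to 117 and at 1200 to 1281 FPKM.

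Product descriptions, taken from annotations in the study's drought tables, exist for 1281 tested genes, of which 19 were called higher and 9 lower. Those tables list genes that the study called drought-responsive in OsJAZ1-OE or in ZH11 but not in both. The choice used libraries that include those compared here. Counts of described genes, here and by family below, therefore describe that list and not whole gene families. These described genes lie outside the rule by which genes were named, and those below were chosen after their values were seen. LOC_Os04g14690, a flavin-containing monooxygenase of a family that oxidizes nitrogen- and sulfur-containing metabolites, rose from 2.92, 2.87 and 3.75 FPKM to 36.4, 45.5 and 42.2 FPKM, with a log2 fold change of 3.2 and a standard error of 0.11 (adjusted p = 1.9e-08, edgeR). LOC_Os11g35930, annotated as a chalcone synthase, the type of enzyme that opens flavonoid synthesis, rose from 13.7, 10.9 and 8.92 FPKM to 28.3, 27.8 and 21.3 FPKM (log2 fold change 1.18). LOC_Os12g44280, annotated as a subtilase, a serine protease, had no count in ZH11 and stood at 2.46, 2.75 and 3.64 FPKM in OsJAZ1-OE, at least 34.1-fold higher. LOC_Os01g53430, a putative anthocyanidin glucosyltransferase, averaged 0.299 FPKM against 1.18 FPKM (log2 fold change 1.99). LOC_Os12g03730, which has the zinc finger DHHC domain of protein palmitoyltransferases, averaged 0.192 FPKM against 0.583 FPKM (log2 fold change 1.41).

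Transposon-related genes were among the described genes that rose. Of 65 tested, 6 passed the adjusted p higher and 0 lower, and 5 of the 6 were called, while 4.29% of all described genes passed. The largest difference was in the retrotransposon gene LOC_Os01g47510, with no count in ZH11 and 0.712, 0.690 and 0.651 FPKM in OsJAZ1-OE. LOC_Os08g41070 averaged 0.00585 against 0.120 FPKM, and LOC_Os07g36710 averaged 0.185 against 0.602 FPKM (log2 fold changes 4.24 and 1.72). LOC_Os03g50180 (log2 fold change 1.44) and LOC_Os02g14280 (1.06) no longer passed when single libraries were left out, although the differences stayed similar, at 1.38 with an adjusted p of 0.15 (edgeR) for the former without ZH11 replicate 1. Levels of this order correspond to few fragments, and reads of transposon copies may be shared between loci.

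Receptor-like kinases, membrane proteins that sense external signals, moved less. Of 25 tested ones counted by the wording of their description, 3 passed the adjusted p higher and 0 lower. Of all described genes, 4.29% passed in either direction. All 3 were under the fold limit: LOC_Os11g10290 (log2 fold change 0.78), LOC_Os02g17710 (0.66) and LOC_Os07g18240 (0.42). Such wording can miss members: LOC_Os07g35730, described by its homology to DUF26 kinases, also passed higher (0.42) but was not among these 3. LOC_Os11g10290, an S-domain kinase, averaged 1.59 ± 0.0934 FPKM in ZH11 and 2.72 ± 0.237 FPKM in OsJAZ1-OE (SD, n = 3). A group of kinase genes close together on chromosome 1 showed a rise of the same order, with log2 fold changes of 0.63 for LOC_Os01g02750, 0.70 for TAK33 (LOC_Os01g02780) and 0.44 for LOC_Os01g02790. TAK33 passed under all 15 alternative settings, whereas the other kinases named here missed the adjusted p in at least 4 of them. Without OsJAZ1-OE replicate 3, LOC_Os01g02790 was at 0.37 (adjusted p = 0.20, edgeR) and LOC_Os11g10290 at 0.72 (0.076). Among 11 described disease resistance proteins, 12 WRKY factors, 15 protease inhibitors and 13 histones, 0 passed in either direction.

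The lower genes were fewer, and their decreases smaller. Of the 60, 13 (21.7%) had a log2 fold change of -3 or less, and 36 had one above -2. They averaged a median of 1.75 FPKM in ZH11 and 0.645 FPKM in OsJAZ1-OE, and 19 of them reached 5 FPKM in ZH11. Summed over the 60, the level was 368 to 374 FPKM in ZH11 and 136 to 143 FPKM in OsJAZ1-OE. Only 2 had no count in OsJAZ1-OE, against 49 higher genes with none in ZH11.

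LOC_Os05g12580 (Chr5:7219131-7222246), annotated as an expressed protein, stood at 6.43, 9.85 and 6.58 FPKM in ZH11 and at 1.78e-06, 0.187 and 0.22 FPKM in OsJAZ1-OE, a log2 fold change of -5.77 with a standard error of 0.47 (adjusted p = 4.5e-05, edgeR). It had 459 counts in the ZH11 libraries and 8 in those of OsJAZ1-OE. LOC_Os06g26270 (Chr6:15378572-15384370) stood at 19.6, 17.0 and 18.4 FPKM against 1.23, 1.18 and 1.28 FPKM, a log2 fold change of -3.52 with a standard error of 0.22 (adjusted p = 2.1e-06, edgeR). In both genes the genotypes stood apart in every library, and the latter varied little within each genotype. LOC_Os11g38580 stood at 7.68, 8.90 and 8.31 FPKM in ZH11 and 1.43, 1.103 and 1.08 FPKM in OsJAZ1-OE, with a log2 fold change of -2.65 (adjusted p = 8.7e-07, edgeR). LOC_Os06g12640, at 3.29, 12.5 and 8.92 FPKM in ZH11 and 0.936, 0.970 and 0.741 FPKM in OsJAZ1-OE, varied widely within ZH11, and its log2 fold change of -3.23 did not pass without OsJAZ1-OE replicate 3 (adjusted p = 0.057, edgeR).

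Transporters and a peroxidase were among the lower genes with a description. LOC_Os01g18930, a peroxidase precursor of the class that acts on cell wall phenolics and hydrogen peroxide, stood at 3.23, 6.18 and 7.56 FPKM in ZH11 and at 0.937, 1.05 and 0.515 FPKM in OsJAZ1-OE (log2 fold change -3.04, adjusted p = 8.6e-04 from edgeR). LOC_Os06g38120, annotated as a low-affinity cation transporter, stood at 8.67, 5.47 and 5.50 FPKM against 1.47, 1.06 and 2.02 FPKM (log2 fold change -2.11). In both genes each OsJAZ1-OE library lay below each ZH11 library. The amino acid transporter gene LOC_Os11g19240 (log2 fold change -1.66) and the peptide transporter gene LOC_Os07g01070 (-1.11) passed narrowly. They missed the adjusted p in 6 and 10 of 14 alternative settings. Their highest adjusted p, without OsJAZ1-OE replicate 3, was 0.15 and 0.18 (edgeR). Of the other named decreases, LOC_Os08g41590 had a log2 fold change of -2.06 and LOC_Os03g44880 one of -1.54. LOC_Os08g41590 missed the adjusted p in 2 of 15 alternative settings, at up to 0.056 (limma on log2(FPKM + 0.1)). LOC_Os03g44880 missed the adjusted p in 8 of 15 alternative settings, at up to 0.17 without OsJAZ1-OE replicate 3 (edgeR). LOC_Os12g38720 had a log2 fold change of -1.41, LOC_Os01g23710 one of -1.37, LOC_Os03g14654 one of -1.28 and LOC_Os12g21784 one of -1.19. LOC_Os03g14654 missed the adjusted p in 1 of 15 alternative settings (0.064, limma on log2(FPKM + 0.1)), and under drought its log2 fold change was 0.13. LOC_Os06g39624, LOC_Os05g32460 and LOC_Os11g39670 lay at the fold limit, between -1.04 and -1.01. LOC_Os01g23710 was the steadiest of these genes, at 8.65, 7.94 and 8.62 FPKM in ZH11 and 3.17, 3.49 and 3.26 FPKM in OsJAZ1-OE. Another 2 genes had no count in OsJAZ1-OE and at least 5 FPKM in ZH11, LOC_Os06g34940 with 5 counts and LOC_Os12g11980 with 27, and neither passed the test.

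The 4 drought libraries were not compared in these contrasts, and they held the same line. They did share in the choice of tested genes, the scaling of libraries and the estimate of spread. A gene absent from ZH11 could therefore be tested through the OsJAZ1-OE drought libraries, which favors a high level there. Of the 334 higher genes, 329 (98.5%) had a log2 fold change of the same sign between OsJAZ1-OE and ZH11 under drought, and 279 (83.5%) also passed the test there, where 3.68% of all genes passed. Of the 60 lower genes, 52 (86.7%) had the same sign and 28 (46.7%) passed. Over all genes tested, 63.0% had the same sign in both conditions. The median log2 fold change of the higher genes was 4.55 under normal conditions and 4.88 under drought, and that of the lower genes -1.55 and -1.18.

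**Figure D3:**
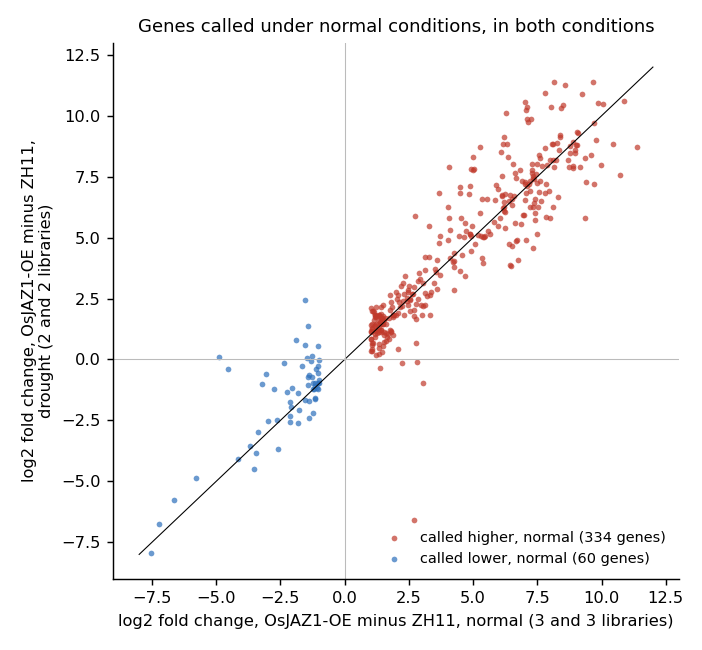
Fitted log2 fold change of OsJAZ1-OE against ZH11 for each gene called under normal conditions, coloured by direction. Normal conditions are on the horizontal axis (3 libraries of each genotype) and drought on the vertical axis (2 of each). Genes that were not called are not shown. The 334 genes called higher cluster along the diagonal, 329 of them above 0 on both axes, and the values of genes with no count in ZH11 depend on the prior count of the fit.

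Most of the called genes that were nearly silent in ZH11 remained so under drought. Of the 177 with a ZH11 mean under 0.1 FPKM, 164 were also under 0.1 FPKM in the ZH11 drought libraries. For 173, both OsJAZ1-OE drought libraries lay above both ZH11 drought libraries, as they did for 23.8% of all genes tested. A gene this low in ZH11 reached the test mainly through OsJAZ1-OE, in either condition. These counts therefore describe the called genes and support nothing further, and the share over all genes is not a like comparison. Among the genes with a log2 fold change of at least 3, 205 of 206 kept the sign and 194 passed under drought. LOC_Os10g12610 had a log2 fold change of 9.01 there, LOC_Os07g06834 one of 9.12, LOC_Os03g43100 one of 10.45 and LOC_Os03g02460 one of 6.59. The decrease of LOC_Os06g26270 was larger under drought, at -4.50, and that of LOC_Os11g38580 similar, at -2.48. For LOC_Os01g18930, whose ZH11 level was 0.354 and 0.264 FPKM under drought, the value was -0.62 and did not pass.

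The exceptions were few, and they were chosen after their values were seen. In all, 5 higher genes had the opposite sign under drought, LOC_Os07g46950, LOC_Os09g25700, LOC_Os11g41970, LOC_Os08g41960 and Oryza_sativa_newGene_423. LOC_Os11g41970 alone of them passed in both conditions, with log2 fold changes of 2.70 and -6.60, at levels of at most 0.167 FPKM in any library, and it lost the normal call without any 1 of the 6 normal libraries (adjusted p of up to 0.11 from edgeR, without OsJAZ1-OE replicate 2). Of the 8 lower genes with the opposite sign, LOC_Os08g13710 passed in both, at -1.44 and 1.36, although its libraries overlapped under normal conditions, where its call was lost in 7 of 15 alternative settings. The difference between conditions was tested for every gene as an interaction in edgeR, and 0 of 24850 passed, with 2097 at an unadjusted p under 0.05.

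Genes that the authors' assembly had added to the annotation made up more of the called genes than of the tested ones. Of 943 such new genes tested, 60 were called, 52 higher and 8 lower, which is 6.36% of them against 1.59% of all genes. They formed 15.2% of the called and 3.79% of the tested genes. The study's methods do not say which reads were assembled. If reads of these libraries were used, a locus silent in ZH11 could be added only through OsJAZ1-OE. These shares therefore describe the called genes and support nothing further.

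Called genes lay on all 12 chromosomes. The percentage of tested genes called ran from 0.870% on chromosome 3 to 3.00% on chromosome 11 and 2.62% on chromosome 10, with 1.59% overall. Of 378 windows of 1 Mb with at least 10 tested genes, 228 held at least 1 called gene and 5 held at least 5. Chromosome 11 held 2 of these windows. In that of 18 to 19 Mb, 6 of 41 tested genes were called, all higher, among them the overlapping genes LOC_Os11g31500 and LOC_Os11g31510 (log2 fold changes 7.89 and 9.34), LOC_Os11g31050 (8.06) and LOC_Os11g31630 (7.42). The overlap of the first pair means that its reads cannot be divided with certainty, since no source used here states the strand of the counting. In the window of 21 to 22 Mb, 5 of 55 were called, all higher, among them the chalcone synthase gene LOC_Os11g35930, LOC_Os11g35850 (log2 fold change 2.89), and LOC_Os11g35970 and LOC_Os11g36100, which had no count in ZH11.

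**Figure D4:**
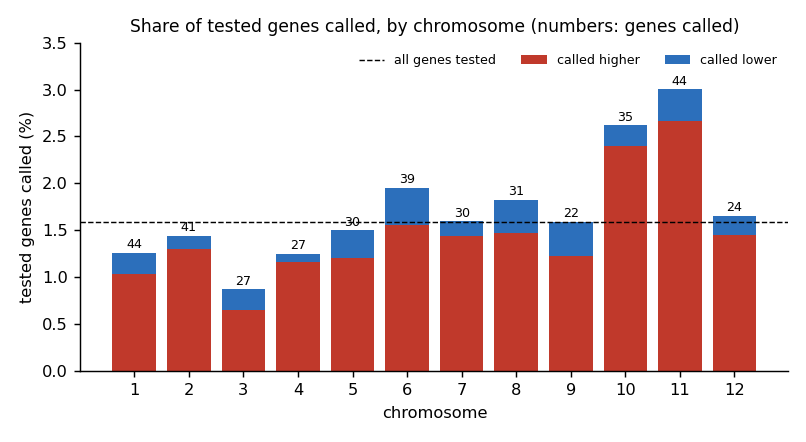
Percentage of tested genes called higher and lower on each of the 12 chromosomes, as stacked bars, with a dashed line at the 1.59% of all tested genes. Chromosomes 10 and 11 lie farthest above the line, at 2.62 and 3.00%, and chromosome 3 farthest below it, at 0.870%.

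The other windows were on chromosomes 2, 6 and 10. On chromosome 10, 6 of 114 genes between 22 and 23 Mb were called, all higher, including the neighbors LOC_Os10g41829 (no count in ZH11) and LOC_Os10g41838 (log2 fold change 4.53), and the neighbors Oryza_sativa_newGene_308 (6.15) and LOC_Os10g41350 (no count in ZH11). On chromosome 2, 5 of 57 between 18 and 19 Mb were called, all higher, with LOC_Os02g31230 (6.98), Oryza_sativa_newGene_823 (5.28), LOC_Os02g30700 (2.77) and LOC_Os02g30540 (1.56). On chromosome 6, between 8 and 9 Mb, 5 of 52 were called and the directions were mixed. There LOC_Os06g15730 (2.32) and LOC_Os06g15750 (7.08) were higher, while LOC_Os06g15740, which lies between them, was lower. LOC_Os06g15740 stood at 0.668, 0.619 and 0.325 FPKM in ZH11 and 0.271, 0.133 and 0.137 FPKM in OsJAZ1-OE. Its call missed the adjusted p in 8 of 14 alternative settings, with 0.20 (edgeR) without OsJAZ1-OE replicate 3. LOC_Os06g14870, in the same window, had a log2 fold change of 3.35. Over the genome, where 1.59% of tested genes were called, 28 pairs of neighboring tested genes were both called. Of these, 24 had the same direction, such as LOC_Os05g45160 and LOC_Os05g45170 with log2 fold changes of 9.68 and 8.16. With 334 of 394 called genes higher, most pairs would share a direction wherever they lay. Whether neighbors were called together more often than other genes was not tested. Some pairs overlap, such as LOC_Os11g01690 and LOC_Os11g01700, and may share reads.

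The pathways in which OsJAZ1 or drought responses are known to act were read from 22 lists, in which 190 tested genes had a name that the reference supported. Of these, 1 passed the adjusted p higher and 6 lower, 3.68% against 3.83% of all genes tested, and 0 reached the fold limit. Their median log2 fold change was -0.01. The 95% interval of 137 of the 190 lay within a 2-fold change in either direction, and the intervals of the others were wider. With only the 6 normal libraries in the fit, 4 of 182 passed higher and 9 lower, and 2 of these reached the fold limit. It was reached by 2 genes with a replicate block, 4 without a filter, 1 with DESeq2, 2 without OsJAZ1-OE replicate 1 and 1 without ZH11 replicate 2.

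**Figure D5:**
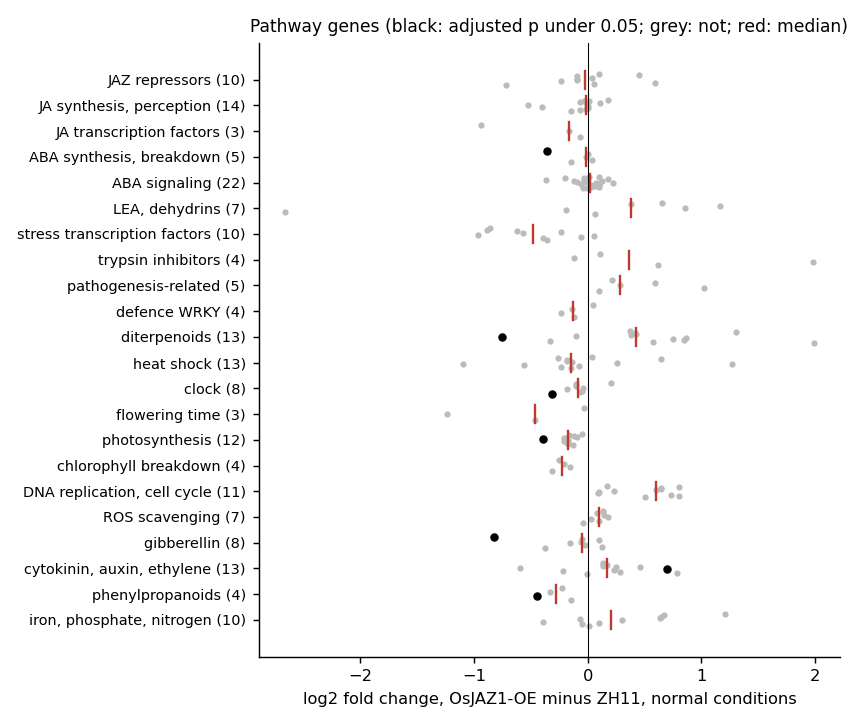
Log2 fold change of OsJAZ1-OE against ZH11 under normal conditions for each tested member of 22 pathway lists, 1 list per line, with black dots for members at an adjusted p under 0.05 (edgeR), grey dots for the rest and a red mark at the median. Only 7 of the 190 members are black, and the medians of the JAZ and ABA signaling lists lie at -0.03 and 0.02.

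The jasmonate pathway outside OsJAZ1 gave no call. Of 10 other JAZ repressor genes, 0 passed, with a median of -0.03, and their summed level was 319 to 345 FPKM in ZH11 and 308 to 368 FPKM in OsJAZ1-OE. OsJAZ7, the most expressed of them, stood at 192, 172 and 183 FPKM in ZH11 and 210.2, 171 and 195 FPKM in OsJAZ1-OE. OsJAZ11 came nearest to the threshold, at 6.11, 5.85 and 5.80 FPKM against 9.54, 7.20 and 9.94 FPKM, with a log2 fold change of 0.59 (interval 0.13 to 1.05, adjusted p = 0.17 from edgeR, and 0.039 with only the 6 normal libraries). OsJAZ3, at 0.10, and OsJAZ8, at -0.10, had narrower intervals, and 5 of the 10 lay within a 2-fold change. Of the 14 genes of jasmonate synthesis and perception, 0 passed and 13 intervals lay within a 2-fold change. They included the receptor gene OsCOI2, at 23.0, 23.1 and 23.1 FPKM in ZH11 and 21.6, 20.3 and 20.8 FPKM in OsJAZ1-OE (log2 fold change -0.15, adjusted p = 0.11 from edgeR), OsLOX1 for a lipoxygenase at 0.18, and OsAOC for allene oxide cyclase, at 50.2, 49.6 and 46.9 FPKM against 52.8, 49.1 and 49.6 FPKM. Of 3 jasmonate-related bHLH factors, OsbHLH148 had a log2 fold change of -0.17 and OsbHLH006 one of -0.94 with an interval from -2.98 to 1.101.

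ABA signaling genes, from receptors to kinases and transcription factors, differed little between the genotypes. None of 22 passed, and all 22 intervals lay within a 2-fold change, with log2 fold changes from -0.37 to 0.22. The upper end was the kinase gene SAPK2, at 67.3, 63.7 and 65.4 FPKM in ZH11 and 77.5, 75.9 and 76.0 FPKM in OsJAZ1-OE (adjusted p = 0.15, edgeR, and 0.025 with only the 6 normal libraries). In ABA synthesis, OsZEP1, the zeaxanthin epoxidase of an early step, fell from 392.5, 353 and 385 FPKM to 300.4, 300.4 and 281 FPKM (log2 fold change -0.36, adjusted p = 0.023 from edgeR). The 7 late embryogenesis abundant and dehydrin genes were less certain, with 2 intervals within a 2-fold change. RAB21, a dehydrin, stood at 1.097, 0.794 and 0.970 FPKM against 2.84, 1.80 and 1.92 FPKM, without overlap, and its log2 fold change of 1.16 had an interval from -0.17 to 2.49 (adjusted p = 0.37, edgeR, and 0.044 with only the 6 normal libraries, at 1.17). The dehydrin gene LOC_Os02g44870, at 29.2, 32.7 and 29.8 FPKM against 32.6, 30.9 and 34.4 FPKM, had a log2 fold change of 0.07. Of 10 drought and cold transcription factors, 0 passed and 1 lay above 0, and 1 passed lower with only the 6 normal libraries or without a filter. Among them OsNAC5, at 27.8, 26.0 and 30.4 FPKM against 23.6, 21.6 and 21.4 FPKM, had a log2 fold change of -0.35 (adjusted p = 0.14, edgeR, and 0.038 with only the 6 normal libraries), OsNAC6 one of -0.39 and OsDREB2B one of -0.06. OsDREB1A (-0.86) and OsDREB1B (-0.89), which activate cold- and drought-responsive genes, were at under 3 FPKM, with intervals from -3.40 to 1.68 and from -4.33 to 2.55.

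A pair of growth hormone genes gave the firmest differences in the lists, and both passed under each of the 15 alternative settings. SD1, the gibberellin 20-oxidase of the semidwarf rice varieties, fell from 21.5, 22.7 and 26.4 FPKM in ZH11 to 12.9, 16.3 and 12.4 FPKM in OsJAZ1-OE, with a log2 fold change of -0.83 and a standard error of 0.13 (adjusted p = 0.0033, edgeR). It was the only one of 8 gibberellin genes to pass. OsGH3.2, an enzyme that conjugates the auxin indole-3-acetic acid to amino acids, rose from 4.74, 5.17 and 4.56 FPKM to 7.85, 8.60 and 8.50 FPKM, with a log2 fold change of 0.70 and a standard error of 0.11 (adjusted p = 0.0033, edgeR). It was the only one of 13 cytokinin, auxin and ethylene genes to pass, and OsACO2, an ethylene-forming oxidase, ranged from 29.4 to 64.1 FPKM in OsJAZ1-OE against 23.3 to 27.2 FPKM in ZH11 (adjusted p = 0.11, edgeR). Under drought the log2 fold change was -0.36 for SD1 and -0.45 for OsGH3.2.

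The remaining decreases in the lists were small, and whether they passed depended on the libraries used. OsLUX, a MYB-type component of the circadian clock, fell from 195, 176 and 200.7 FPKM to 157, 161 and 156 FPKM (log2 fold change -0.31, adjusted p = 0.0089 from edgeR). The light-harvesting protein gene LOC_Os09g17740 fell from 4975, 4587 and 4843 FPKM to 3974, 3739 and 3437 FPKM (log2 fold change -0.39). CHS1, a chalcone synthase, fell by 0.45 on the log2 scale, in the direction opposite to LOC_Os11g35930. OsKSL6, a diterpene synthase of the kaurene synthase-like family, fell by 0.75. These 4 genes and OsZEP1 no longer passed the adjusted p without OsJAZ1-OE replicate 3, while SD1 and OsGH3.2 did. The fold changes stayed similar there, and OsKSL6, with the highest adjusted p of the 5 (0.17, edgeR), was at -0.67. All 12 photosynthesis genes lay below 0, with a median of -0.17 and 1 of 12 passing, and all 11 DNA replication and cell cycle genes lay above 0, with a median of 0.60 and 0 passing. The latter median moved with single libraries, to 0.15 without OsJAZ1-OE replicate 3, 0.35 without ZH11 replicate 3 and 1.14, with 1 gene passing, without ZH11 replicate 2.

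No gene passed in the other lists described here. They were 4 trypsin inhibitors, with BBTI12 at 0.62, 5 pathogenesis-related genes, with the chitinase gene Cht1 at 0.59 and PBZ1 at 0.21, 4 WRKY genes, 13 heat shock genes, with HSP26.7 at -1.09, 4 senescence genes, 7 genes against reactive oxygen and 10 genes of iron, phosphate and nitrogen use, with the iron transporter gene OsYSL2 at 0.63 (all log2 fold changes).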

How the data were processed

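RNA-seq was performed on rice shoots, and for each library the authors deposited expected counts, that is, estimated fragment numbers per transcript, for 101273 transcripts of 55689 genes. The deposited tables also give FPKM for each transcript. TopHat2, Picard, SAMtools 0.1.18 and GATK are named in the submitters' processing notes without a role; the genome build is not stated, and positions are those of the files. Total counts were similar in all libraries, but low values came in whole multiples of 0.884 to 1.15 counts per library (90.2 to 90.9% within 0.01), so the totals are scaled, and dividing by that step gives 28736521 to 37796267 fragments.

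For each gene identifier, the values of its transcripts were added up, and the resulting counts were rounded. The main test was edgeR 4.0.16 in R 4.3.3 (TMM, filterByExpr, quasi-likelihood F test, all 10 libraries with 1 mean per group and no covariate), tested on simulated data. Genes were called at an adjusted p under 0.05 and an absolute log2 fold change of at least 1. Alternatives were DESeq2 1.42.0, limma 3.58.1 on log2(FPKM + 0.1) or log2(FPKM + 1), other size factors and filters, only the 6 normal libraries, a replicate block, the library step divided out, and each normal library left out. The third drought replicate of each genotype, excluded by the authors, was not analysed here.

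Named genes were OsJAZ1, genes the study names, the 12 largest changes and 8 lowest p in each direction and the 6 most abundant among called genes without overlap at 5 FPKM or more, genes with no count in 1 genotype and at least 5 FPKM in the other, up to 4 per window of 1 Mb with at least 5 called genes, and 2 or 3 per list. Others are marked as chosen after their values were seen. The members and lists were chosen with earlier results of these data known. Of 328 listed loci, 200 had a name that a rice reference table places on the same chromosome near that position. Such a match cannot tell neighboring genes of a cluster apart. The study's annotation supported another 12, and the other names were not used.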

Additional observations from a re-analysis of the deposited data

Results flagged for a closer look

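Groups of 3 libraries were too small to test for a single library far from the rest. A difference between conditions was seen in 6 called genes, for which all normal libraries of OsJAZ1-OE lay on one side of ZH11 and all drought libraries on the other. The values are the change in the log2 fold change from normal conditions to drought, tested as an interaction in edgeR, and none passed. For 4 genes lower under normal conditions the change was upward: 4.00 for LOC_Os03g44880 (adjusted p = 0.39, edgeR), 2.68 for LOC_Os09g17360 (0.40), 2.11 for LOC_Os01g45510 (0.46) and 1.62 for LOC_Os09g10340 (0.46). LOC_Os09g10340 ranged in ZH11 from 11.2 to 19.2 FPKM under normal conditions and stood at 0.537 and 0.315 FPKM under drought, and in OsJAZ1-OE it ranged from 5.98 to 8.96 FPKM and stood at 0.762 and 0.549 FPKM. For 2 genes higher under normal conditions the change was downward: -9.30 for LOC_Os11g41970 (adjusted p = 0.14, edgeR) and -4.04 for Oryza_sativa_newGene_423 (0.41). Both stayed under 0.2 FPKM in every library.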

How the results depend on the processing

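The difference in OsJAZ1 kept its direction and passed under every alternative run. Of the counts, those of genes called higher (main 334), called lower (60) and called with the same sign under drought (381) moved by over 1.5 times as follows. With limma on log2(FPKM + 1), they were 183, 21 and 200. Without the fold limit, 583 genes were higher and 369 lower. With a stricter filter, 50 counts in each library of some group, 36 were lower. When 1 library at a time was left out, only the lower count moved that far, to 33 without ZH11 replicate 1 and 31 without OsJAZ1-OE replicate 3. Across those fits there were 277 to 324 higher genes, 31 to 52 lower and 302 to 369 with the same sign. The causes of these shifts were not tested, beyond the added fold limit or filter itself.

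Whether the replicate numbers pair the libraries cannot be decided here, since deviations within a group of 3 sum to 0 and are not independent. Deviations of same-numbered libraries from their group means correlated at 0.15, -0.004 and -0.10. Not every library correlated best with its own number. A replicate block gave 344 higher, 64 lower and 390 with the same sign. Of 103 named genes that passed, 68 passed under every alternative that tested them and 0 reversed. The pathway genes that passed, 1 higher and 6 lower, numbered 3 and 9 with DESeq2, 8 and 9 without a filter, 5 and 6 with the block and 1 and 1 without OsJAZ1-OE replicate 3. Among genes that did not pass, values near 0 changed sign. OsAOC (LOC_Os03g32314) was at -0.00114 and became 0.047 and 0.046 with limma, 0.0027 with the filter of 50 counts and 0.0067 with only the 6 normal libraries, with a range of -0.046 to 0.021 when 1 library was left out. OsJAZ7 (LOC_Os07g42370) ranged from -0.024 to 0.10 when 1 library was left out. The interaction count of 0 in edgeR was 3 without OsJAZ1-OE replicate 1, 5 and 11 with limma and 45 without a filter. Genes under about 0.1 FPKM rest on a handful of fragments, so their fold changes are imprecise.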
